A study of Mus musculus with 6 samples.

Results

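The Fos, Jun and Egr early genes are 10 genes, Fos, Fosb, Jun, Junb, Jund, Egr1, Egr2, Egr3, Ier2 and Atf3, out of 19935 genes with a probe set under 1 symbol on the array. They were followed over all 6 arrays by genotype and by array number, since their mRNA is known to respond to the handling of cells. Each had exactly 1 probe set, no probe set with several symbols held a member, and all 10 passed the filter on low levels. Their probe sets map to chromosome 12 (Fos), 7 (Fosb), 4 (Jun), 8 (Junb, Jund and Ier2), 18 (Egr1), 10 (Egr2), 14 (Egr3) and 1 (Atf3). Selp-/- and WT mice, both labelled C57BL/6, were compared in their HSC, the hematopoietic stem cells from which every blood lineage arises, to learn how P-selectin, the adhesion receptor encoded by Selp, acts in these cells. There were 3 arrays of Selp-/- HSC and 3 of WT HSC, each numbered 1 to 3 within its genotype. The age, sex and number of mice, the design of the Selp allele and the sort that defined the HSC are not given in the sources used here. Separate mice are not stated for the arrays of either genotype. The p-values therefore cover array-to-array spread, which need not be the spread between mice.

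Immediate early genes are switched on within minutes of a stimulus without new protein synthesis, mainly through kinase cascades that act on transcription factors already bound at their promoters. The Fos proteins pair with the Jun proteins to form the AP-1 transcription factor, the Egr genes encode zinc finger factors, Ier2 encodes a small nuclear protein, and Atf3 encodes a stress-induced factor of the same leucine zipper class as Fos and Jun. In dissociated and sorted tissue these transcripts are widely used as a sign of handling, and in HSC some of them, such as Egr1 and Junb, are also known as regulators of stem cell quiescence and expansion.

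The promoters of the 4 genes that differed by array number are shown because such genes are known to be driven from short sites close to their start. Promoter windows of 7 of the 10 genes, from RefSeq tables for GRCm38.p6, were searched. Egr3 and Ier2 had no window in those tables. Egr1 was left out of the search, so the motif counts do not cover it. Each line below is the 250 bases before an annotated start, 5' to 3' on the strand of the gene. Capitals mark matches to TGACG, the core of the cAMP response element, to TGACNTCA, a form shared by that element and AP-1 sites, and to the CArG box bound by serum response factor, searched on both strands. Fos is on the plus strand at chr12:85473640-85473889, Jun on the minus strand at chr4:95052223-95052472, Egr2 on the plus strand at chr10:67537619-67537868 and Atf3 on the minus strand at chr1:191183334-191183583. Egr2 has 5 starts in the table, of which the third is shown. The windows of the third to the fifth start overlap and hold the same matches.
Fos: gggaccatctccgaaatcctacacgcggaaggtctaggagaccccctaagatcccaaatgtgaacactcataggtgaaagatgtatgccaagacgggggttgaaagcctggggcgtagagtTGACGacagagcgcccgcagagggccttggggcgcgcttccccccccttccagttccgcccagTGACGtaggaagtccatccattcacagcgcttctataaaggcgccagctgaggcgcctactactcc
Jun: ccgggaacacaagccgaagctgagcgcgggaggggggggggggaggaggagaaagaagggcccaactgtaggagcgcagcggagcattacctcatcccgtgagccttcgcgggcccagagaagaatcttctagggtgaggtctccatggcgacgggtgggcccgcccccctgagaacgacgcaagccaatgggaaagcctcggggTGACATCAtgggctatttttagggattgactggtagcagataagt
Egr2: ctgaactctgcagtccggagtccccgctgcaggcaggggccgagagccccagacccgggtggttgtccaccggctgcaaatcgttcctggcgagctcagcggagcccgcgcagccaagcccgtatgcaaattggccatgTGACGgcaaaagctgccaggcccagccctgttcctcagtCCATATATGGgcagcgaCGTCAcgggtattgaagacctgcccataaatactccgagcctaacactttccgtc
Atf3: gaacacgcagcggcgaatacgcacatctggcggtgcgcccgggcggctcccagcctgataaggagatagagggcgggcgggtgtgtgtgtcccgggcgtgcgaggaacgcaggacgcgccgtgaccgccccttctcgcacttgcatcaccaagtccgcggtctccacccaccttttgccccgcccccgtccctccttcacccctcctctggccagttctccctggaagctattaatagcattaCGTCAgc

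The core TGACG stood in the windows of 5 of the 7 genes, namely Fos, Fosb, Junb, Egr2 and Atf3, against 19.8% of 27025 genes with a match in any window of the same length, which is how members with several windows were counted too. TGACNTCA stood in 1 of 7, as TGACATCA in Jun from 45 to 38 bases before the start, against 8.55% of genes. The CArG box stood in 1 of 7, Egr2, as CCATATATGG in the window shown, against 1.62% of genes. The full element TGACGTCA, which also counts as TGACNTCA and holds the core, stood in 0 of 7 against 1.77%. The AP-1 site TGANTCA stood in 0 of 7 against 7.82%, and the Egr site GCGNGGGCG in 1 of 7, Fosb, against 5.33%. A match is a description of the letters and does not show that a factor was bound in these cells.

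Levels are log2 intensities after background correction and quantile normalization, and a level says nothing about another gene's probe set. The deposited intensities had medians of 638 to 713 in the Selp-/- arrays and 563 to 751 in the WT arrays. The arrays numbered 3 of both genotypes stood apart from the other 4. Of 17 HSC marker genes 13 were lowest in both arrays numbered 3, and Hlf, a stem cell transcription factor, lay at 8.81 in Selp-/- 3 and 8.88 in WT 3, close to the filter level of 8.79, below which a probe set's mean was too low to be tested. All 10 mast cell and basophil markers, 10 of 14 neutrophil markers and 8 of 11 monocyte markers were highest in those 2 arrays. The HSC label thus went with lower HSC markers and higher markers of these other lineages there. Still, 11 and 13 of the 17 HSC markers in Selp-/- 3 and WT 3 were above the filter level. Selp-/- 3 also differed in Xist, an RNA made from the inactive X, with an intensity of 398 against 5010 to 10757 in the other 5 arrays. The Y-linked genes Eif2s3y, Kdm5d and Uty were highest in the same array, at 952.5, 739.5 and 637.5, against at most 597.5, 578.5 and 542 in the others. No probe set was named Selp, so the genotype labels were not checked by the deleted gene.

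The early genes did not pass the test between the genotypes. The limma test of Selp-/- minus WT called 0 of 10 members and 0 of 17289 probe sets, a background of 0%, with an adjusted p of 1 for every member. At an unadjusted p under 0.05 there were 0 members and 122 probe sets (0.706%). The values of the genotypes did not separate for any member, 0 of 10 against 4.21% of all tested probe sets. The differences lay between -0.28 for Egr1 and 0.39 for Atf3, with a median of 0.04 over the members and 0.0054 over all tested probe sets. That fit did not take array number into account. With the replicate number as a block, the SE was smaller for Fos and Egr1, as given below. The blocked fit again called 0 of 10 members and 0 of 17289 probe sets. In bulk samples such as these, fewer cells of a type and less RNA per cell cannot be told apart.

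Differences by array number were larger. The F test of array number called 4 of 10 members, Fos, Jun, Egr2 and Atf3, against 12.8% of all tested probe sets. Fos, Egr2 and Atf3 rose in the arrays numbered 3 relative to the mean of numbers 1 and 2, which is 3 of 10 against 9.13% of all tested probe sets called higher, and 0 of 10 were called lower against 11.7%. Over the 4 arrays numbered 1 and 2, Fos averaged 8.61 and Atf3 8.69, under the filter level of 8.79, so both were tested only through the arrays in which they were called high. With no filter the same 3 of 10 were called higher, against 5.13% of all 28815 probe sets. Jun was called by the F test, and its low arrays were those numbered 1. The other 6 members did not pass. Without a test, 9 of 10 members lay above 0 in that contrast against 48% of all tested probe sets. Both arrays numbered 3 lay above the other 4 for 4 members, Fos, Egr2, Egr3 and Atf3, against 20.1% of probe sets. Both arrays numbered 1 lay below the other 4 for 5 members, Fos, Jun, Junb, Egr1 and Ier2, against 8.09%.

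Among the Fos proteins, Fos, the founding AP-1 subunit, measured 8.28, 8.83 and 9.35 in Selp-/- 1, Selp-/- 2 and Selp-/- 3, against 8.23, 9.11 and 9.42 in WT 1, WT 2 and WT 3. Both arrays numbered 3 lay above all others and both numbered 1 lay below all others, in each genotype alike. The deposited intensities of Fos were 441, 554.5 and 827 in the Selp-/- arrays and 396.5, 569.5 and 907.5 in the WT arrays, so the order of the arrays was the same in the values as deposited. Number 3 lay 0.77 above the mean of numbers 1 and 2 (SE 0.12, adjusted p = 0.00606 by limma), 1.71-fold. Both arrays numbered 1 were under the level used for the filter. The Selp-/- mean was 8.82 ± 0.54 and the WT mean 8.92 ± 0.62 (SD, n = 3 each), a difference of -0.10 (SE 0.37) that was smaller than the spread within either genotype. That spread includes the differences by array number. With the replicate number as a block the SE of the difference was 0.11 and its adjusted p 0.983 by limma.

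Fosb, a close relative of Fos that is known to be induced with it, measured 8.90, 9.20 and 8.96 in Selp-/- 1 to 3, against 9.06, 9.29 and 8.92 in WT 1 to 3. All 6 values lay within 0.39, and the arrays numbered 3 were not the high ones after normalization. In the deposited intensities WT 3 was the highest array, at 681.5, while Selp-/- 3 (661) lay under Selp-/- 2 (676.5). Number 3 minus the mean of numbers 1 and 2 was -0.17 (SE 0.11, adjusted p = 0.291 by limma), of opposite sign to that of Fos, and the difference between the genes was not tested.

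Among the Jun proteins, Jun, the main partner of Fos, measured 9.12, 10.24 and 10.30 in Selp-/- 1 to 3, against 9.07, 10.50 and 9.81 in WT 1 to 3. The arrays numbered 1 of both genotypes were the low ones, with a gap to every other array. Their deposited intensities were 713 in Selp-/- 1 and 627 in WT 1, while the other 4 arrays lay between 1134.5 and 1510. The F test of array number gave an adjusted p of 0.0133 by limma, but the single contrast of number 1 minus number 2 did not pass (-1.28, SE 0.19, adjusted p = 0.117), nor did number 3 minus the mean of both (0.32, SE 0.16, adjusted p = 0.201). The contrast of number 1 and number 2 was called for 0 of 10 members and for 0.0521% of all tested probe sets, 0.0463% higher and 0.00578% lower. Without a test, 8 of 10 members lay below 0 in it against 52.9%. At an unadjusted p under 0.05 it held 2 members, Fos and Jun, and 7.96% of all tested probe sets. The Selp-/- mean of Jun was 9.89 ± 0.66 and the WT mean 9.79 ± 0.72 (SD, n = 3 each).

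Junb, a Jun protein that is known to restrain HSC expansion, measured 8.72, 9.36 and 8.89 in Selp-/- 1 to 3, against 8.45, 8.79 and 9.29 in WT 1 to 3. Jund, the most constantly expressed Jun protein in many cell types, measured 10.39, 10.64 and 10.46 in Selp-/- 1 to 3, against 10.06, 10.37 and 10.88 in WT 1 to 3. For both, the highest Selp-/- array by normalized level was number 2 and the highest WT array was number 3. The deposited intensities of Jund ordered the Selp-/- arrays otherwise, with 1691, 1542 and 1686 in Selp-/- 1 to 3. Neither gene passed the F test (adjusted p = 0.242 for Junb and 0.312 for Jund by limma).

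**Figure D1:**
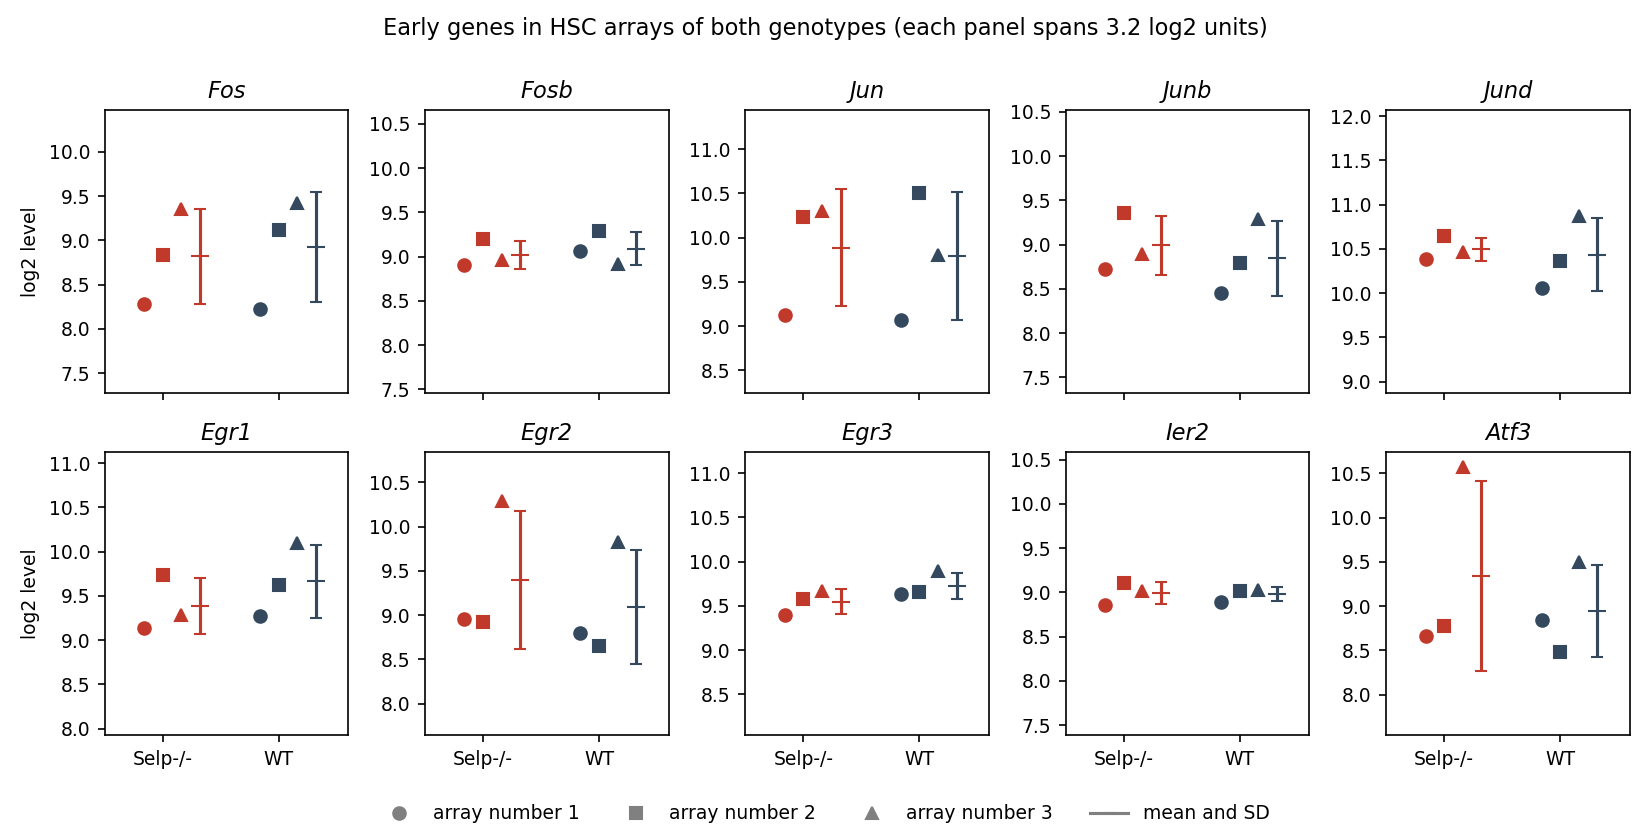
Log2 levels of the 10 early genes (vertical axes, each spanning the same range) in Selp-/- and WT HSC arrays, with symbols for array number and the mean and SD of each genotype beside them. The genotypes overlap for every gene, while Fos, Egr2 and Atf3 are highest in both arrays numbered 3 and Jun is lowest in both numbered 1.

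Of the Egr factors, Egr1, a factor known to hold HSC quiescent and in their niche, measured 9.14, 9.73 and 9.28 in Selp-/- 1 to 3, against 9.28, 9.62 and 10.10 in WT 1 to 3. WT 3 was the highest array, and Selp-/- 3 lay among the arrays numbered 1 and 2. The Selp-/- mean was 9.38 ± 0.31 and the WT mean 9.66 ± 0.41 (SD, n = 3 each), with a difference of -0.28 (SE 0.25). The SE of that difference was 0.18 with the replicate number as a block. Array number did not pass for Egr1 (F test, adjusted p = 0.244 by limma).

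Egr2, a factor of myeloid and lymphoid cells, measured 8.96, 8.93 and 10.29 in Selp-/- 1 to 3, against 8.80, 8.65 and 9.83 in WT 1 to 3. Its deposited intensities were 644, 583 and 1499 in the Selp-/- arrays and 538, 446 and 1150 in the WT arrays. Both arrays numbered 3 stood apart, and the other 4 lay close together. Number 3 lay 1.23 above the mean of numbers 1 and 2 (SE 0.11, adjusted p = 0.000818 by limma), 2.34-fold. Egr2 was higher in the Selp-/- array of all 3 numbers, by 0.16, 0.27 and 0.46 in numbers 1, 2 and 3. With the replicate number as a block its unadjusted p was 0.0245 and its adjusted p 0.983 by limma, so the call was the same, and it was the 1 member of 10 under an unadjusted 0.05 in that fit, against 3.64% of all tested probe sets.

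Egr3, which is known from lymphocyte activation, measured 9.40, 9.58 and 9.67 in Selp-/- 1 to 3, against 9.63, 9.66 and 9.89 in WT 1 to 3. The arrays numbered 3 were the highest, by a small margin, at 0.22 above the mean of numbers 1 and 2 (SE 0.10, adjusted p = 0.18 by limma). Egr3 was lower in the Selp-/- array of all 3 numbers, at -0.23, -0.077 and -0.22, and its mean was 9.55 ± 0.14 in Selp-/- HSC and 9.73 ± 0.14 in WT HSC (SD, n = 3 each). Egr2 and Egr3 were the 2 members of 10 whose difference had the same sign in all 3 numbers, against 23.8% of all tested probe sets.

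Ier2, an early gene that is induced with Fos in many cells, was the least variable member. It measured 8.86, 9.10 and 9.02 in Selp-/- 1 to 3, against 8.89, 9.01 and 9.03 in WT 1 to 3. All 6 values lay within 0.24, and no term passed the test (F test of array number, adjusted p = 0.493 by limma). The deposited intensities were 607, 641 and 683 in Selp-/- 1 to 3 and 566, 540 and 727 in WT 1 to 3. In those values WT 2 lay under WT 1, unlike after normalization.

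Atf3, induced by many kinds of cellular stress, was the most variable member, with 8.66, 8.77 and 10.58 in Selp-/- 1 to 3, against 8.85, 8.48 and 9.50 in WT 1 to 3. Its deposited intensities were 542, 539 and 1813 in the Selp-/- arrays and 554, 410 and 951 in the WT arrays. Both arrays numbered 3 were high and Selp-/- 3 was the higher, by 1.07. Number 3 lay 1.35 above the mean of numbers 1 and 2 (SE 0.23, adjusted p = 0.00962 by limma), 2.54-fold. The value was 0.84 without Selp-/- 3 and 1.86 without WT 3. The lower arrays straddled the level used for the filter. The F test of Atf3 (adjusted p = 0.0273) did not pass without WT 2, without Selp-/- 2, without Selp-/- 3, or when no probe set was filtered out.

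**Figure D2:**
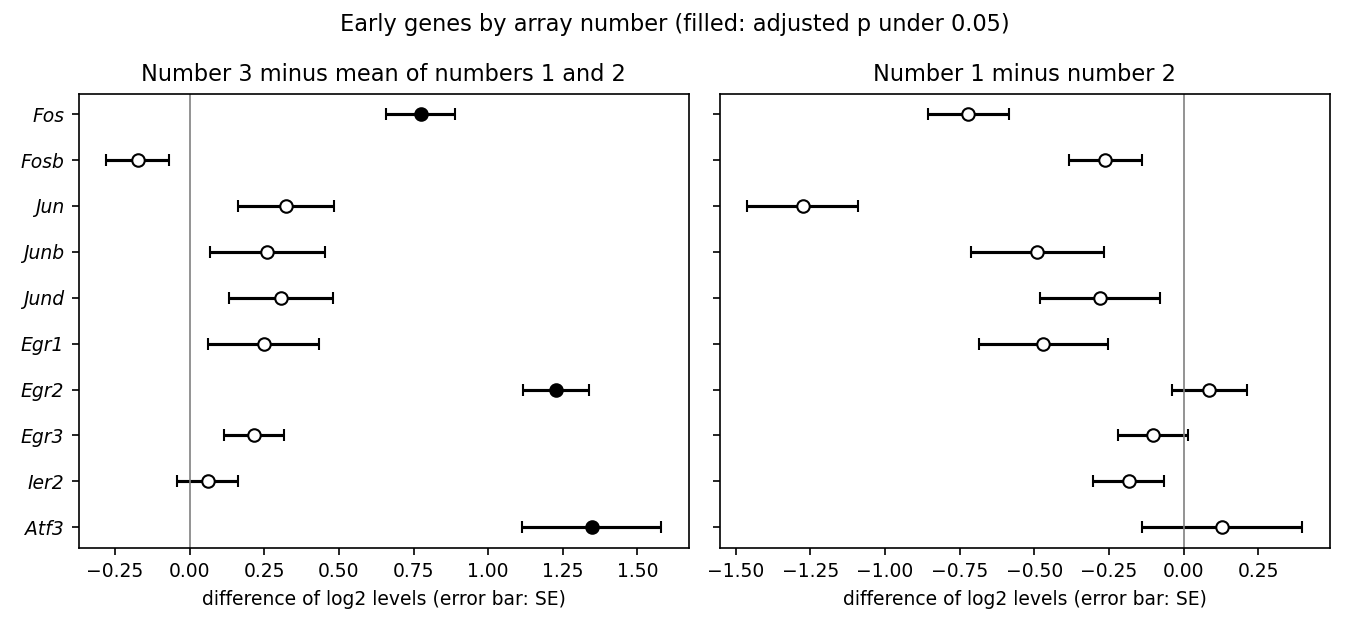
Differences of log2 level by array number for the 10 early genes, with the SE as error bars, for number 3 minus the mean of numbers 1 and 2 (left) and number 1 minus number 2 (right). Filled symbols passed an adjusted p of 0.05, which were Fos, Egr2 and Atf3 on the left and no gene on the right.

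For 3 members the arrays numbered 3 lay on opposite sides of numbers 1 and 2 in the 2 genotypes. Junb lay -0.15 below the mean of numbers 1 and 2 in Selp-/- 3 but 0.67 above it in WT 3. Jund lay at -0.053 in Selp-/- 3 and 0.67 in WT 3 by the same measure, and Egr1 at -0.15 and 0.65. Without Selp-/- 3, WT 3 is the only array numbered 3. The contrast of number 3 with the mean of numbers 1 and 2 was then 0.67, 0.67 and 0.65 for Junb, Jund and Egr1. Without WT 3 the 3 members were -0.15, -0.053 and -0.15. Each of these contrasts rests on 1 array per genotype, so the difference between the genotypes was not tested.

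Within the arrays numbered 3, the Selp-/- array was higher than the WT array in Atf3 by 1.07, in Jun by 0.49 and in Egr2 by 0.46. It was lower in Egr1, at -0.81, in Jund, at -0.41, and in Junb, at -0.40. The median size of the difference, sign aside, was 0.41 over the 10 members in number 3, against 0.13 over all tested probe sets. In number 1 it was 0.16 against 0.14, and in number 2 it was 0.27 against 0.14. These are differences between single arrays and carry no test. Selp-/- 3 is the array that differed in Xist, and the part of that difference in these values was not tested.

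**Figure D3:**
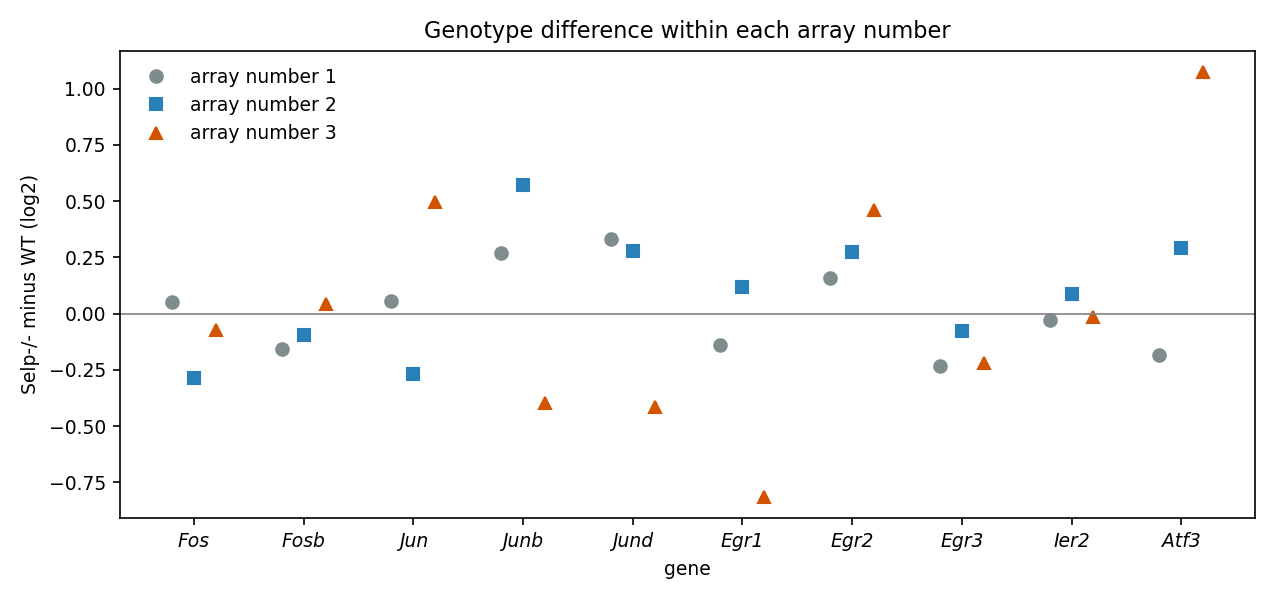
Selp-/- minus WT difference of log2 level (vertical axis) within array numbers 1, 2 and 3 for each early gene, with 1 array per genotype in each point. The differences in number 3 run from -0.81 for Egr1 to 1.07 for Atf3, and those in number 1 from -0.23 to 0.33.

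The members did not move as a block over the 6 arrays. Egr2 and Atf3 had the closest profiles, with a Pearson correlation of 0.96, followed by Junb and Jund with 0.93. Egr1 and Atf3 had a correlation of -0.01, and Fosb had -0.61 with Egr2. The arrays share their number and their cell makeup, so these correlations are descriptions over 6 points. Outside the 10 members, the genes with profiles most like Fos among 12445 named genes were Sybu, Ppp1r3d and Espnl (Pearson correlation over 6 arrays 0.992, 0.992 and 0.984). For Jun they were Insig2, Dnm1 and Hps6 (0.978, 0.978 and 0.972), and for Egr1 they were Olfr48, Barhl2 and Atp8b2 (0.983, 0.982 and 0.98). With so few arrays, 176 genes reached a correlation over 0.9 with Fos, 69 with Jun and 82 with Egr1.

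A further list of immediate early genes was read in the same way. Of 40 genes, all had a probe set and 35 were tested. The F test called 12 of 35 against 12.8% of all tested probe sets, 12 rose and 2 fell in the arrays numbered 3, against 9.13% and 11.7% of all tested probe sets, and the median difference of number 3 from numbers 1 and 2 was 0.28, the same as the 0.28 of the 10 members and against -0.01 over all tested probe sets. Gadd45b, a growth arrest and stress gene, measured 10.80 in Selp-/- 3 and 10.72 in WT 3, against 9.04 to 9.68 in the other 4 arrays. Sgk1, a kinase induced by serum and glucocorticoids, measured 10.57 in Selp-/- 3 and 9.83 in WT 3, against 8.49 to 8.76 in the others. Those other values lie under the filter level, so Sgk1, 1 of the 12 called higher, was tested only through the arrays numbered 3. Klf6 and Cebpb, a zinc finger factor and a leucine zipper factor of myeloid cells, lay 1.23 and 1.12 higher in number 3 (SE 0.14 and 0.13, adjusted p = 0.00228 for both by limma). With no filter 14 of 40 were called higher and 2 lower, against 5.13% and 6.23% of all 28815 probe sets. Between the genotypes 0 of 35 passed, and 0 lay under an unadjusted 0.05.

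Of 14 AP-1 partners and repressors tested, 4 rose and 2 fell in the arrays numbered 3. The count lower was near the 11.7% of all tested probe sets called lower, and 9.13% were called higher. With no filter 2 rose and 2 fell, against 5.13% and 6.23% of all probe sets. Fosl2 and Fosl1, the remaining Fos proteins, which also count among the other early genes, rose by 0.71 and 0.63 (SE 0.10 and 0.11), and Bach2, a repressor that competes for AP-1 sites, fell by 0.93 (SE 0.11), with adjusted p of 0.0056, 0.00951 and 0.00223 by limma. The kinases and factors that act upstream of the early genes had 2 of 22 tested called higher and 6 lower in number 3, with a median of -0.30. The count higher was at the share of all tested probe sets, 9.13%. Mef2c and Elk4, which bind early gene promoters, fell by 1.11 and 0.83 (SE 0.11 each). Mapk9, a kinase that phosphorylates Jun, fell by 0.59 (SE 0.12). Heat shock and unfolded protein genes, a separate sign of cell stress, had 4 of 14 tested called higher and 0 lower. With no filter 2 of 15 were called higher, against 5.13% of all probe sets. The median was 0.17, 9 of 14 lay above 0, and the F test called 1 of 14, Hmox1. Hmox1, the heme oxygenase induced by oxidative stress, rose by 1.57 (SE 0.15). Bag3, a chaperone partner, lay 0.66 higher (SE 0.14) and Hspa5, the main chaperone of the endoplasmic reticulum, 0.56 higher (SE 0.14). Both passed that contrast (adjusted p = 0.0208 and 0.0357 by limma) but not the F test of array number (adjusted p = 0.051 and 0.0905 by limma).

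Markers of other blood cells moved with the same arrays, and their part in the early gene values was not tested. Since 3 of 7 mast cell, 4 of 9 monocyte and 1 of 12 neutrophil markers tested were above the filter level only through the arrays numbered 3, their counts are given with no filter, where 5.13% of all probe sets were called higher and 6.23% lower. The summed linear level of the 10 mast cell and basophil markers was 47231 in Selp-/- 3 and 61935 in WT 3, against 4570 to 5761 in the other 4 arrays, with 10 of 10 called higher. That of 11 monocyte and macrophage markers was 32413 in Selp-/- 3 and 20362 in WT 3, against 9956 to 10237, with 7 of 11 called higher. The 14 neutrophil markers summed to 88992 and 88932 in the arrays numbered 3 and to 23590 to 57844 in the others, with 12 of 14 called higher. The 17 HSC markers summed to 19757 and 23219, against 41110 to 51198, with 12 of 17 called lower and 1 higher. Of the mast cell markers, 6 of 10 were under the filter level in each of the other 4 arrays and 0 in the arrays numbered 3. Of the remaining lists, 2 of 7 megakaryocyte and 1 of 8 T and NK lymphoid genes were called higher in number 3, and 1 of 7 erythroid and 1 of 8 B lymphoid genes lower. An intensity has no zero, so being under the filter level is not absence.

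Between numbers 1 and 2, where Jun and Fos differed most, neutrophil markers differed too. Ngp and Lcn2, both proteins of neutrophil granules, lay 3.00 and 2.28 higher in number 1 than in number 2, and 3 of 12 neutrophil genes tested passed that contrast, against 0.0521% of all tested probe sets. Car1, an erythroid carbonic anhydrase, lay 1.99 higher. Fos and Jun were lower in number 1, where these markers were higher. The summed level of the 10 early genes was 5715 in Selp-/- 1 and 5578 in WT 1, and between 7264 and 9039 in the other 4 arrays.

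**Figure D4:**
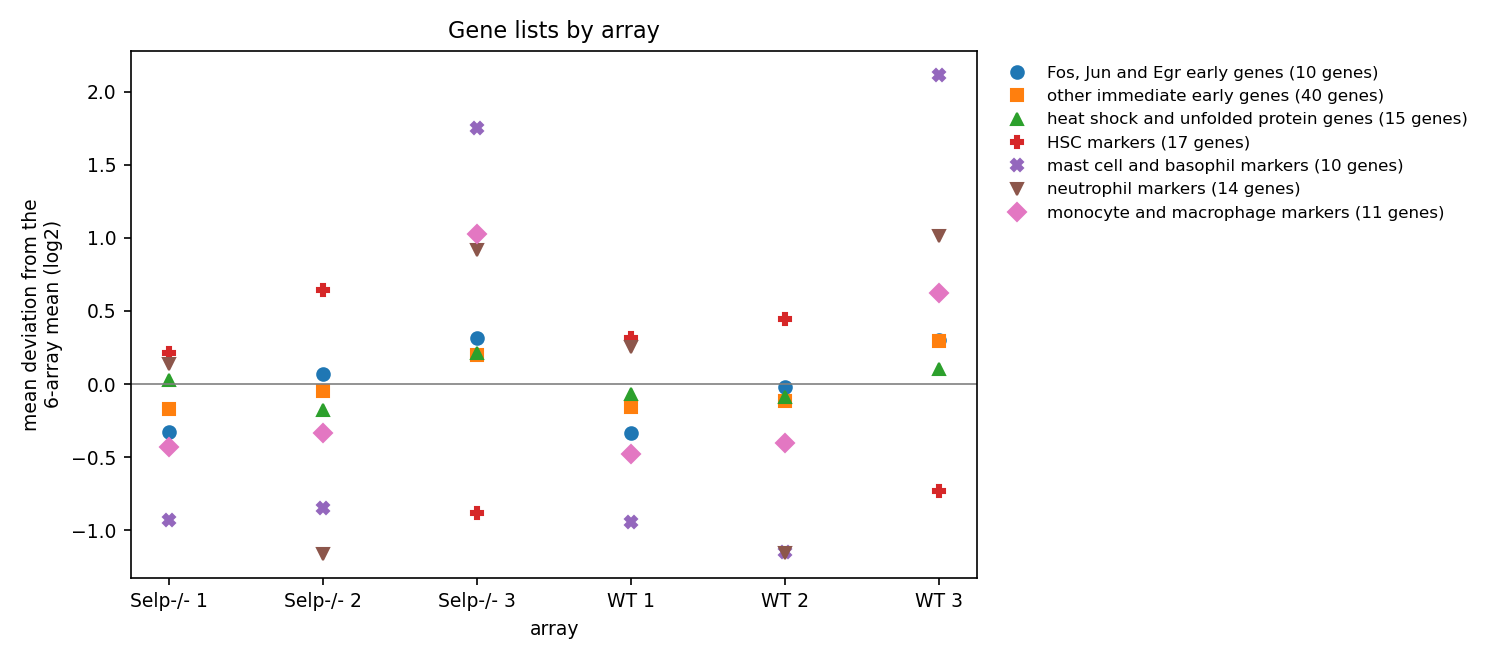
Mean deviation from the 6-array mean on the log2 scale (vertical axis) for the early genes, 2 other stress lists and 4 cell marker lists in each array (horizontal axis). The early genes were lowest in number 1 (-0.33 in Selp-/- and -0.34 in WT) and highest in number 3 (0.31 in Selp-/- and 0.30 in WT), inside the range of the mast cell, monocyte and HSC markers.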

How the data were processed

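Expression was measured on 6 mouse arrays from total RNA amplified and labelled with biotin, per the labels' protocols. The authors deposited 1 intensity per probe set on a linear scale, for 28815 probe sets. The submitters' processing notes name MAS5 without a version. The intensity medians differed between arrays, and whether a scale factor was applied is unknown. Intensities were corrected with normexp (offset 50), log2 transformed and quantile normalized in limma 3.58.1 under R 4.3.3. Probe sets above the 40th percentile of the mean level were kept, which left 17289. Genotype, and array number with genotype as a covariate, were fitted with lmFit and eBayes with a variance trend, two-sided, with Benjamini-Hochberg adjustment over all tested probe sets and a threshold of 0.05. Both fits were tested on simulated data with added changes. The data used for the genotype fit held no array number effect, so they do not show how that fit behaves where such an effect is present. Fold changes are differences of log2 levels. The arrays give no read depth, and their number limits the precision.

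The platform annotation gave 1 symbol to 21780 probe sets, of which 21689 matched a RefSeq gene of GRCm38.p6, while 1605 carried several symbols and 5430 carried none. For genes with several probe sets the brightest was used. Every member was named. Of each other list up to 4 genes with the smallest p of the array number F test could be named, and for Fos, Jun and Egr1 the 3 most correlated genes. Xist, Eif2s3y, Kdm5d and Uty are outside that rule and were picked with their values already seen, as was the choice to single out Junb, Jund and Egr1 in the arrays numbered 3. The members, the gene lists and the contrasts were chosen with earlier results of these data known.

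Deviations from the genotype means of arrays with the same number correlated at 0.428, 0.526 and 0.814 across probe sets for numbers 1, 2 and 3. Each genotype mean includes an array numbered 3, and those arrays stood apart, so the values for numbers 1 and 2 include that shared shift. Arrays of unlike number were not compared, so these values do not show pairing by themselves. The numbers, which come from the sample titles, were taken to pair the samples, and a fit with the replicate block was run. Other alternatives were no background correction, median centring, no filter, a 60th percentile filter, no genotype term, arrays numbered 1 and 2 only, and leaving out each array.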

Additional observations from a re-analysis of the deposited data

How the results depend on the processing

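The calls of Fos, Egr2 and Atf3 as higher in the arrays numbered 3 held with no background correction, median centring, no filter, no genotype term and without each array in turn. With the 60th percentile filter 4 of the 10 members were tested, namely Jun, Jund, Egr1 and Egr3. Fos, Egr2 and Atf3 were filtered out, so their calls were not tested again there. The F test of array number called 1 of those 4, Jun, against 17.8% of all probe sets tested there. The F test called 3 to 5 members and 1007 to 2239 probe sets when 1 array was left out, the fewest without WT 3, and 1431 without Selp-/- 3. The genotype test called 0 probe sets in every setting except arrays numbered 1 and 2 only, where it called 4, of which 0 are members. With the replicate block it called 0, with 630 probe sets under an unadjusted 0.05, and it changed no call.

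Genotype differences of 8 members changed sign when 1 array was left out, with ranges of -0.23 to 0.73 for Atf3, -0.15 to 0.67 for Egr2, -0.45 to 0.17 for Fos, -0.16 to 0.031 for Fosb, -0.039 to 0.082 for Ier2, -0.27 to 0.48 for Jun, -0.048 to 0.37 for Junb and -0.12 to 0.29 for Jund. Egr1 (-0.47 to -0.062) and Egr3 (-0.24 to -0.094) kept their sign. These fits held no term for array number, so leaving out 1 array left the numbers unequal between the genotypes. Differences by array number then enter the genotype difference, and a changed sign need not be one within the numbers. Within numbers 1, 2 and 3 the Egr2 difference was 0.16, 0.27 and 0.46. Jun was -0.11 in arrays numbered 1 and 2 only. Number 3 minus the mean of numbers 1 and 2 ranged from -0.15 to 0.65 for Egr1, -0.15 to 0.67 for Junb and -0.053 to 0.67 for Jund, and number 1 minus number 2 from -0.31 to 0.56 for Atf3 and -0.017 to 0.19 for Egr2. Number 1 minus number 2 passed for Jun without Selp-/- 3 (adjusted p = 0.00902 by limma) and without WT 3 (0.0107). Leaving out 1 array leaves a lone array of that number, assumed to vary like the others. The cause of these changes was not tested.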
